A study of Mus musculus with 4 samples.

Results

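Regulators of G protein signalling (RGS proteins) shorten the signal of G protein coupled receptors. They speed up the hydrolysis of GTP by active G protein alpha subunits. The 10 genes described here are picked out by symbol, from a list drawn up with earlier results of these data known: 8 genes of RGS proteins (Rgs2, Rgs4, Rgs6, Rgs7, Rgs8, Rgs9, Rgs14 and Rgs20) and 2 genes of proteins that work with the R7 group of RGS proteins (Gnb5 and Rgs7bp). All 10 had a row among the 32531 gene rows of the files, and all 10 passed the filter on low counts.

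RGS proteins fall into subfamilies. The R7 proteins, among them the products of Rgs6, Rgs7, Rgs9 and Rgs11, bind the atypical G protein beta subunit encoded by Gnb5, which they need to be stable, and are held at membranes by anchors such as the product of Rgs7bp. The R4 proteins, among them the products of Rgs2, Rgs4 and Rgs8, are small and contain little beyond the RGS domain. In striatal neurons the long splice form of Rgs9 is known as a brake on signalling by dopamine and opioid receptors.

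The study compared total RNA of the dissected nucleus accumbens, with 2 libraries, and of the dissected dorsal striatum, with 2 libraries. All 4 libraries came from mice aged over 20 months of the line Drd1-TRAP CP73 (Drd1-EGFP/Rpl10a-CP73 in the sample titles), in which the Drd1 promoter drives EGFP fused to the ribosomal protein Rpl10a. They are labelled as input, which is read here as RNA from before any pull-down of tagged ribosomes, so they hold RNA of every cell type in the dissected tissue. The labels do not say whether the libraries came from separate animals or pools, and the spread behind every p-value may therefore be technical.

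Rgs9 and Rgs4 were both lower in accumbens than in dorsal striatum, with log2 fold changes of −1.13 and −1.12, and were the 2 of 10 genes to pass an adjusted p of 0.05. The other 8 genes did not pass. Across all 14493 genes tested, 1.28% passed in either direction, 0.29% were lower in accumbens and 0.994% were higher. At an unadjusted p under 0.05 there were 3 of the 10 genes, against 19.2% of all genes. Levels of the 2 regions did not overlap for 8 of the 10 genes, against 51.2% of all tested genes, so that such a separation is common in these libraries. It was downward in accumbens for 6 of the 10 and upward for 2, against 25.6% of all tested genes in each direction. The median log2 fold change was −0.20 over the 10 genes and 0.02 over all tested genes.

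The proximal promoters of Rgs9 and Rgs4 are shown because these genes were lower together. Each window runs from 250 bases before to 50 bases after the start of the gene in RefSeq, on the minus strand, in build GRCm38.p6, whose chromosomes are those of mm10. For Rgs9 this start differs from that of GENCODE, the source of the gene positions given below. The Rgs9 window lies wholly before the GENCODE start at 109298129. Capitals mark 3 motifs searched on both strands: TGACG, the core of the cAMP response element, GGGCGG, the GC box, and TATAAA, the TATA box.
Rgs9, chr11:109298132-109298431: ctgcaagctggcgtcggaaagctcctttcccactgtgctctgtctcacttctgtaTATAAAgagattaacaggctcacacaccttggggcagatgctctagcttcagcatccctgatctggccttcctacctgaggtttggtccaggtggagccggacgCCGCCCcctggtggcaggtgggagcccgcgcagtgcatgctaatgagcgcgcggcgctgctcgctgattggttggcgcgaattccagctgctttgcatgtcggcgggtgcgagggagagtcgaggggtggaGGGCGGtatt
Rgs4, chr1:169747593-169747892: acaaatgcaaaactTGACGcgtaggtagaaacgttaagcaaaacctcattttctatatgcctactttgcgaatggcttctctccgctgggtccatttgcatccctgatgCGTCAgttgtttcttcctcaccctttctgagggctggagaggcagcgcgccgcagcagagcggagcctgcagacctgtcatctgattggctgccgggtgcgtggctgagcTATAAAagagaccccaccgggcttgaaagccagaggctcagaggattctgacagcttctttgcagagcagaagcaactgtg

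Counted from 1 at the 5′ end of each window, the Rgs9 promoter held the GC box at 160 (opposite strand) and 291 and the TATA box at 56, and did not hold TGACG. The Rgs4 promoter held TGACG at 15 and at 110 (opposite strand) and the TATA box at 220, and did not hold the GC box. The TATAAA match thus began 195 bases before the RefSeq start in Rgs9 and 31 bases before it in Rgs4. The second GC box match of Rgs9 began 40 bases after the start. These are matches of letters, and their function was not tested. No match overlapped another of these motifs. Of 27025 promoters of the same length, 21.0% held TGACG, 35.9% the GC box and 14.2% the TATA box. The windows had 60.3% (Rgs9) and 53.0% (Rgs4) G and C bases, against a median of 52.7% over all promoters.

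Within the R7 group, Rgs9 (chromosome 11, 109225355 to 109298129, minus strand) had the highest level per transcript length of the 10 genes. It stood at 659 and 663 CPM (counts relative to the library total, scaled between libraries with TMM factors) in the accumbens libraries, against 1590 and 1314 CPM in the dorsal striatum libraries. Both accumbens libraries lay below both dorsal striatum libraries, and the accumbens pair was nearly equal. Rgs9 was 2.20-fold lower in accumbens, with a log2 fold change (log2FC) of −1.13 (standard error, SE, 0.13, adjusted p = 0.0233 in edgeR's quasi-likelihood test). By unadjusted p it ranked 5 among all genes tested. Leaving out any 1 library gave values between −1.27 and −1.01. The counts cover the whole gene, so the retinal and striatal splice forms of Rgs9 were not told apart.

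Rgs7, which encodes a widely expressed neuronal R7 protein, was at 74.2 and 88.3 CPM in accumbens, against 66.3 and 71.2 CPM in dorsal striatum. The regions did not overlap, and the log2FC of 0.24 (SE 0.17) did not pass (edgeR adjusted p = 0.483). Rgs6, another R7 gene, had the lowest level per transcript length of the 10, with 26 and 37 counts (3.22 and 4.63 CPM) in accumbens, against 65 and 69 counts (6.83 and 5.50 CPM) in dorsal striatum. Its log2FC was −0.65 (SE 0.50, edgeR adjusted p = 0.532), and at this depth a difference of this size was not resolved. Rgs11, the remaining R7 gene, stood at 5.45 and 7.63 CPM in accumbens, against 14.6 and 11.3 CPM in dorsal striatum, with a log2FC of −0.98 that did not pass (edgeR adjusted p = 0.211).

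The partners of the R7 proteins lay slightly lower in accumbens without passing the threshold. Rgs7bp, the gene of the palmitoylated membrane anchor (chromosome 13, 104945904 to 105054930, minus strand), stood at 373 and 339 CPM in accumbens, against 509 and 455 CPM in dorsal striatum. The regions did not overlap, and the log2FC was −0.44 (SE 0.13, edgeR adjusted p = 0.123). Rgs7bp passed with DESeq2 (adjusted p = 0.0175), without a low-count filter (edgeR adjusted p = 0.0388) and without accumbens replicate 1 (edgeR adjusted p = 0.0197), in a range of 0.0175 to 0.784 over 14 alternatives. Gnb5 (chromosome 9, 75306288 to 75345876, plus strand) stood at 156 and 132 CPM in accumbens, against 166 and 183 CPM in dorsal striatum. Its log2FC was −0.27 (SE 0.15, edgeR adjusted p = 0.354).

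Other anchors gave little signal except Gpr158, an orphan receptor that holds R7 proteins at the membrane. It stood at 469 and 286 CPM in accumbens, against 366 and 375 CPM in dorsal striatum, with the accumbens libraries on both sides of the dorsal striatum pair (log2FC 0.03, SE 0.21, edgeR adjusted p = 0.964). Rgs9bp, the retinal anchor of Rgs9, had 0 and 0 counts in accumbens and 1 and 0 counts in dorsal striatum. Gpr179, a retinal partner of R7 proteins, was below 1.2 CPM in every library and was not tested.

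Among R4 genes, Rgs4, whose product acts on alpha subunits of the Gi/o and Gq classes (chromosome 1, 169741477 to 169747642, minus strand), stood at 314 and 235 CPM in accumbens, against 619 and 573 CPM in dorsal striatum. Every accumbens library lay below every dorsal striatum library. Rgs4 was 2.17-fold lower in accumbens, with a log2FC of −1.12 (SE 0.16, edgeR adjusted p = 0.0278). Its accumbens libraries differed more than those of Rgs9, and the value was −1.35 without accumbens replicate 1 and −0.93 without accumbens replicate 2. Rgs5, the RGS gene nearest to Rgs4 (chromosome 1, 169655501 to 169695813, plus strand), is a gene of pericytes. It stood at 9.04 and 6.63 CPM in accumbens, against 11.03 and 6.30 CPM in dorsal striatum, and did not pass (log2FC −0.14, SE 0.43, edgeR adjusted p = 0.903).

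Rgs8, which is also known from cerebellar Purkinje cells, stood at 366 and 377 CPM in accumbens, against 401 and 406 CPM in dorsal striatum. The regions did not overlap, but the difference was small, at −0.12 on the log2 scale (SE 0.11, edgeR adjusted p = 0.629). Rgs2, an R4 gene induced by neuronal activity whose product prefers Gq, stood at 250 and 199 CPM in accumbens, against 177 and 211 CPM in dorsal striatum. These regions overlapped, and the log2FC was 0.21 (SE 0.16, edgeR adjusted p = 0.527). Rgs2, Rgs4, Rgs7, Rgs8 and Rgs20 all lie on chromosome 1, and of these 5 genes Rgs4 passed.

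Rgs20, of the RZ group that acts on Gz, stood at 71.6 and 84.8 CPM in accumbens, against 68.2 and 69.6 CPM in dorsal striatum (log2FC 0.18, SE 0.16, edgeR adjusted p = 0.599). Both accumbens values were the higher ones, and the difference was about as large as its SE. Exons of Rgs20 share 127 bases with Atp6v1h on the other strand and the strand setting of the counting is not given in the sources used here.

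Rgs14, which encodes a scaffold with an RGS domain known from hippocampal CA2 neurons, differed most between libraries of a region. It stood at 36.2 and 14.6 CPM in accumbens, against 22.8 and 21.8 CPM in dorsal striatum. The accumbens libraries lay on both sides of the dorsal striatum pair, and the log2FC of 0.19 (SE 0.39, edgeR adjusted p = 0.845) rested on which accumbens library was kept. It was −0.61 without accumbens replicate 1 (edgeR adjusted p = 0.0807) and 0.70 without accumbens replicate 2 (edgeR adjusted p = 0.0153), in a range of adjusted p from 0.0153 to 1.00 over 14 alternatives. Cortical glutamatergic markers were also highest in accumbens replicate 1, with a summed level of 479 and 281 CPM in accumbens, against 209 and 109 CPM in dorsal striatum. Of 9 tested markers in that list none passed in edgeR (5 at an unadjusted p under 0.05), and none of its 10 genes was at 0 in all libraries. In the same list 2 markers were higher in accumbens with DESeq2 and 2 with limma-voom, 5 with a replicate block, 6 (and 1 lower) without a low-count filter, and 1 to 6 with a library left out (1 lower without accumbens replicate 2). Markers of hippocampal CA2 neurons had a summed level of 107 and 98.9 CPM in accumbens, against 120 and 142 CPM in dorsal striatum. Most of this sum was Necab2, at 77.9 and 77.9 CPM in accumbens, against 103 and 120 CPM in dorsal striatum. Cacng5 was highest in accumbens replicate 1, like Rgs14, at 25.39 and 12.001 CPM in accumbens, against 10.09 and 12.99 CPM in dorsal striatum. Amigo2 and Map3k15 went the other way and were lowest in accumbens replicate 1, at 1.73 and 1.49 CPM. Of 4 tested CA2 markers 0 passed in edgeR (1 at an unadjusted p under 0.05). The part of either list in the Rgs14 and Rgs4 values was not tested.

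**Figure D1:**
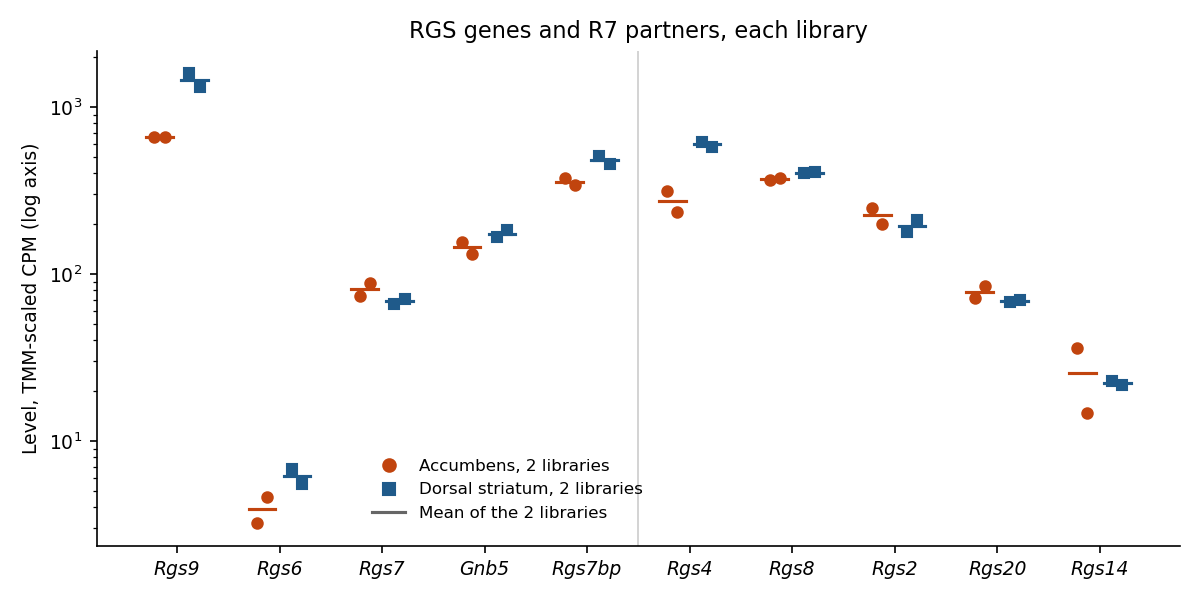
Level of each gene in each library, in TMM-scaled CPM on a log axis, with accumbens circles left of dorsal striatum squares and a line at the mean of 2 libraries, and R7 genes and their partners left of the vertical line. The accumbens circles of Rgs9 (659 and 663 CPM) and Rgs4 (314 and 235 CPM) lie well below the squares, and the circles of Rgs14 (36.2 and 14.6 CPM) lie far apart.

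The other RGS genes of the mouse were examined for comparison. Of 13 listed, 9 were tested and Rgs17 passed, in the opposite direction to Rgs9 and Rgs4. Rgs17, of the RZ group like Rgs20, stood at 332 and 331 CPM in accumbens, against 191 and 198 CPM in dorsal striatum. Its log2FC was 0.77 (SE 0.12, edgeR adjusted p = 0.0358). With library size as the only scaling, or without dorsal striatum replicate 1 or 2, its edgeR adjusted p was 0.0519, 0.0945 and 0.0615, in a range of 4.67e-06 to 0.0945 over 14 alternatives. Rgs19, the third RZ gene, stood at 13.9 and 13.8 CPM in accumbens, against 5.25 and 6.85 CPM in dorsal striatum, and did not pass (log2FC 1.18, SE 0.36, edgeR adjusted p = 0.132).

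The remaining tested RGS genes were low, between 0.25 and 23.04 CPM. Rgs16, the RGS gene nearest to Rgs8, had 1.61 and 12.6 CPM in accumbens, against 3.47 and 2.71 CPM in dorsal striatum, so that 1 accumbens library stood apart. Rgs3, Rgs10 and Rgs12 overlapped between regions, with log2FC values of 0.00, −0.24 and 0.01. Rgs22 had 0.743 and 0.25 CPM in accumbens, against 3.89 and 2.55 CPM in dorsal striatum (log2FC −2.66, SE 0.89, edgeR adjusted p = 0.163). Rgs1, Rgs18 and Rgs21, which lie in the stretch of chromosome 1 around Rgs2, had 0 counts in every library (Rgs13 had 0 and 1 in accumbens, against 1 and 0 in dorsal striatum), which allows a level of up to 0.375 CPM in accumbens, or 0.315 CPM in dorsal striatum (3 counts in the library of each region where a count weighs most, counting error only).

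**Figure D2:**
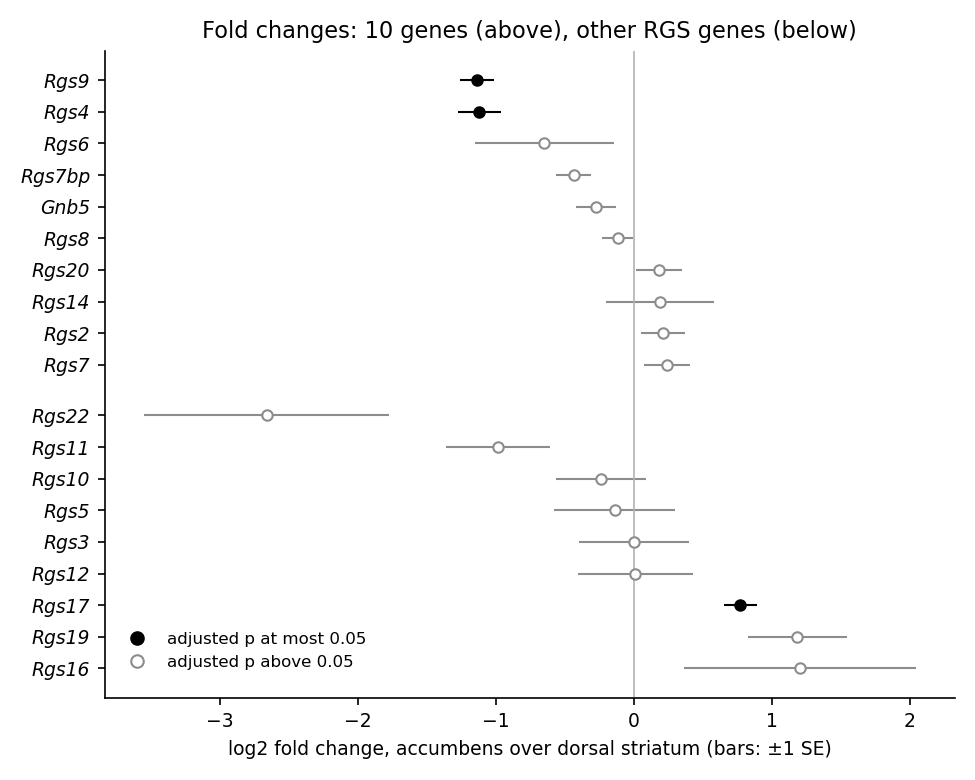
Fitted log2FC, accumbens over dorsal striatum, of the 10 genes (above) and of the 9 other tested RGS genes (below), with bars of 1 SE and filled points at an adjusted p of at most 0.05 in edgeR. Rgs9 (−1.13) and Rgs4 (−1.12) are filled on the negative side and Rgs17 (0.77) on the positive side.

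Levels of different genes were compared per kilobase of the longest protein-coding transcript, as TMM-scaled CPM per kilobase (RPKM). In accumbens the order was Rgs9 (191 RPKM), Rgs4 (93.3), Rgs2 (74.3), Gnb5 (68.5), Rgs7bp (50.3), Rgs8 (43.8), Rgs20 (36.8), Rgs7 (33.4), Rgs14 (10.8) and Rgs6 (0.702), as means of 2 libraries. Rgs4 and Rgs2, Rgs2 and Gnb5, and Rgs20 and Rgs7 overlapped between libraries there. Within each accumbens library their order was the same. In dorsal striatum Rgs9 (419 RPKM) and Rgs4 (203) led again, followed by Gnb5 (82.7), Rgs7bp (68.1), Rgs2 (64.3) and Rgs8 (47.6), with Rgs7bp and Rgs2 overlapping. Rgs9 ranked 1, Rgs4 ranked 2 and Rgs6 ranked 10 in all 4 libraries. With merged exons as the length, Gnb5 and Rgs7bp exchanged places in both regions, and the lead of Rgs9 over Rgs4 was smaller. Rgs9 and Rgs4 then averaged 103 and 88.6 RPKM in accumbens, and 227 and 192 RPKM in dorsal striatum. In accumbens replicate 1 they were nearly equal, at 103 and 101 RPKM.

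A ratio of 2 genes within a library does not depend on the scaling between libraries. Per length, Rgs9 stood to Gnb5 at 2.56 and 3.05 in accumbens, against 5.83 and 4.37 in dorsal striatum. To its anchor gene Rgs7bp it stood at 3.61 and 3.995 in accumbens, against 6.38 and 5.90 in dorsal striatum. Set against the transcripts of its own partners, Rgs9 was thus lower in accumbens too, with log2 differences of −0.85 (Gnb5) and −0.69 (Rgs7bp).

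Against the other R7 gene Rgs7, the Rgs9 ratio was 6.24 and 5.27 in accumbens and 16.8 and 12.96 in dorsal striatum. Within the summed per-length level of Rgs6, Rgs7, Rgs9 and Rgs11, Rgs9 made up 84.9% and 82.4% in accumbens, against 92.8% and 91.4% in dorsal striatum. Rgs7 made up 13.6% and 15.6% in accumbens, against 5.51% and 7.05% in dorsal striatum. The summed level of these 4 genes was 224 and 232 RPKM in accumbens, against 495 and 415 RPKM in dorsal striatum.

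Rgs4 stood to Rgs2 at 1.29 and 1.21 in accumbens, against 3.59 and 2.79 in dorsal striatum, so that these R4 genes were closer in accumbens. How close depends on the length used. With merged exons, Rgs4 stood at 101 and 75.7 RPKM in accumbens, and Rgs2 at 68.9 and 54.8 RPKM. To Rgs8, Rgs4 stood at 2.47 and 1.79 in accumbens, against 4.45 and 4.07 in dorsal striatum. In all, 7 ratios were examined, which also included Rgs9 to Rgs6 and Rgs4 to Rgs7. Each has Rgs9 or Rgs4 on top, so a lower ratio in accumbens in part restates the calls of these genes and is given as a description. An exact two-sided permutation test over 2 against 2 libraries gave p = 0.333 for each, before and after Benjamini-Hochberg adjustment over the 7, the smallest value this design allows.

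**Figure D3:**
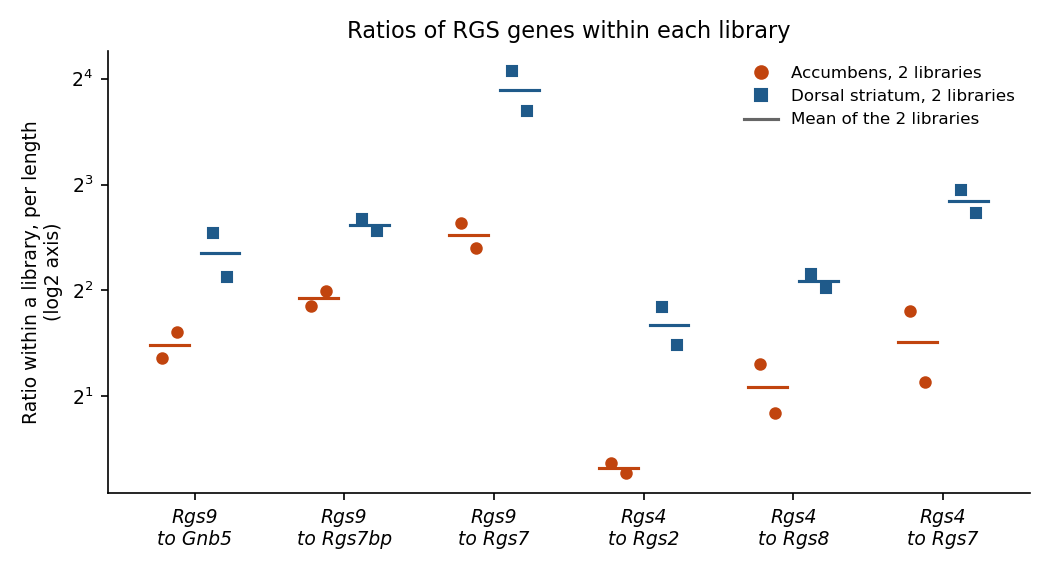
Ratio of Rgs9 or Rgs4 to another gene within each library, both per kilobase, on a log2 axis, with accumbens circles left of dorsal striatum squares and a line at the mean. In each of the 6 ratios drawn, both accumbens circles lie below both dorsal striatum squares, as for Rgs9 to Rgs7 (6.24 and 5.27 against 16.8 and 12.96).

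Both called genes are known to be expressed in spiny projection neurons, the main neurons of the striatum, so the markers of these cells were measured beside them. Of 13 tested markers 1 was higher in accumbens in edgeR (Pdyn) and 0 were lower (6 at an unadjusted p under 0.05), and the median log2FC was −0.15. With DESeq2, with a replicate block, without a low-count filter or without accumbens replicate 1, 2 of them were lower in accumbens, and 1 was lower with limma-voom, with library size alone or without accumbens replicate 2. Without accumbens replicate 2, 6 were higher. Their summed level was 6238 and 5046 CPM in accumbens, against 5977 and 6404 CPM in dorsal striatum, and none was at 0. Levels of the 2 regions did not overlap for 8 of the 13 markers. Of these, 4 were lower in accumbens and 4 higher, against 25.6% of all tested genes in each direction. Ppp1r1b, which encodes DARPP-32, was among the markers that overlapped. It stood at 1081 and 949 CPM in accumbens, against 1000 and 1259 CPM in dorsal striatum (log2FC −0.15, edgeR adjusted p = 0.602). In such bulk tissue, fewer cells of a type and less RNA per cell cannot be told apart.

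Genes of G protein alpha subunits gave no call in edgeR among 11 tested (3 at an unadjusted p under 0.05). With DESeq2 or without a low-count filter 1 was higher in accumbens, as it was without accumbens replicate 1. Leaving out accumbens replicate 2 gave 4 higher and 1 lower. Gnal, the alpha subunit Golf of striatal neurons, stood at 1607 and 1340 CPM in accumbens, against 1241 and 1184 CPM in dorsal striatum (edgeR adjusted p = 0.256). Gnao1, the alpha subunit Go and a main substrate of R7 proteins, stood at 1121 and 1185 CPM in accumbens, against 1274 and 1281 CPM in dorsal striatum (edgeR adjusted p = 0.489). Of 12 other tested beta and gamma subunit genes, Gng3 was higher in accumbens, at 309 and 301 CPM against 101 and 144 CPM in dorsal striatum (log2FC 1.31, SE 0.18, edgeR adjusted p = 0.0261).

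Among receptors that couple to Gi/o, 3 of 22 tested genes were higher in accumbens (Oprk1, Drd3 and Oprm1) and 1 was lower (Cnr1, the cannabinoid receptor CB1). Of the 22, 9 were at an unadjusted p under 0.05 in edgeR, against 19.2% of all tested genes. Cnr1 stood at 112 and 93.9 CPM in accumbens, against 347 and 317 CPM in dorsal striatum. The calls of Oprk1, Drd3 and Oprm1 were lost without dorsal striatum replicate 1 (edgeR adjusted p = 0.135, 0.218 and 0.192), and that of Drd3 also without replicate 2 (0.0636). The call of Oprm1 was also lost with size factors of DESeq2 (edgeR adjusted p = 0.0525) and with library size as the only scaling (0.0519). Of 13 tested genes of Gq-coupled receptors, Htr2c and Cckbr were higher in accumbens (8 at an unadjusted p under 0.05). The call of Cckbr was lost without dorsal striatum replicate 2. With DESeq2, 4 Gi/o and 4 Gq receptor genes were higher and 1 of each list was lower, with 601 of all genes higher and 332 lower. Without a low-count filter, 6 and 7 were higher and 1 of each list was lower, with 768 of all genes higher and 435 lower. Htr2c, a serotonin receptor gene, stood at 211 and 179 CPM in accumbens, against 59.1 and 64.0 CPM in dorsal striatum.

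Other regulators of G proteins gave 1 call among 10 tested, that of Rasd2, which encodes the small GTPase Rhes. It stood at 251 and 196 CPM in accumbens, against 513 and 589 CPM in dorsal striatum (log2FC −1.30, SE 0.15, edgeR adjusted p = 0.0233). Receptor kinases and arrestins (7 tested, 1 at an unadjusted p under 0.05), GIRK channel subunits (4 tested, 2 at such a p), adenylyl cyclases (8 tested, 0 at such a p) and phospholipase C beta genes (4 tested, 1 at such a p) gave no call in edgeR with TMM and filterByExpr. Without accumbens replicate 1, 2 GIRK genes and 1 receptor kinase or arrestin gene were higher and 1 phospholipase C beta gene was lower. Without accumbens replicate 2 each of these 4 lists had 1 gene higher, and 1 receptor kinase or arrestin gene, 1 adenylyl cyclase gene and 2 phospholipase C beta genes were lower. Phospholipase C beta genes also gave 2 lower without a low-count filter and 1 lower with DESeq2. Arrb1, which encodes an arrestin, stood at 259 and 225 CPM in accumbens, against 262 and 280 CPM in dorsal striatum. Adrbk1, a receptor kinase gene, stood at 42.4 and 63.6 CPM in accumbens, against 36.99 and 36.7 CPM in dorsal striatum (edgeR adjusted p = 0.261), with both accumbens values higher. Adcy5, the main adenylyl cyclase gene of the striatum, stood at 360 and 299 CPM in accumbens, against 356 and 377 CPM in dorsal striatum. Adcy9, another cyclase gene, was nearly equal, at 213 and 207 CPM in accumbens, against 210.25 and 211 CPM in dorsal striatum. Kcnj3, which encodes a GIRK channel subunit opened by G protein beta and gamma subunits, stood at 36.4 and 31.9 CPM in accumbens, against 19.3 and 18.97 CPM in dorsal striatum (log2FC 0.83, edgeR adjusted p = 0.112). Kcnj9, the gene of another GIRK subunit, lay the other way, at 19.4 and 16.9 CPM in accumbens, against 20.5 and 22.9 CPM in dorsal striatum (log2FC −0.26, edgeR adjusted p = 0.645). Plcb1, of the phospholipase C beta genes that act downstream of Gq, stood at 410 and 347 CPM in accumbens, against 537 and 503 CPM in dorsal striatum (edgeR adjusted p = 0.121). Plcb4, of the same family, stood at 31.0 and 60.5 CPM in accumbens, against 66.5 and 76.0 CPM in dorsal striatum (edgeR adjusted p = 0.274).

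Depth was 8478403 to 8606099 counts in genes in accumbens and 8991788 to 11849134 in dorsal striatum. In all, 144 genes were higher in accumbens and 42 lower, and this split was 72 and 172 with library size as the only scaling and 128 and 62 with upper-quartile factors. With library size alone the median over all genes was −0.15 on the log2 scale, against 0.02 with TMM, and this scaling moved Rgs9 to −1.31 and Rgs4 to −1.29, and turned the direction of none of the 10 genes. The count of 186 calls was 2789 without accumbens replicate 1, 4464 without accumbens replicate 2 and 109 without dorsal striatum replicate 1. Marker genes of the 2 regions were set beside the tissue labels. They were chosen with results of these data known, so they are no independent check of the labels. Of 10 accumbens markers 8 were higher in accumbens, and of 5 markers of dorsal striatum 3 were lower in accumbens.

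**Figure D4:**
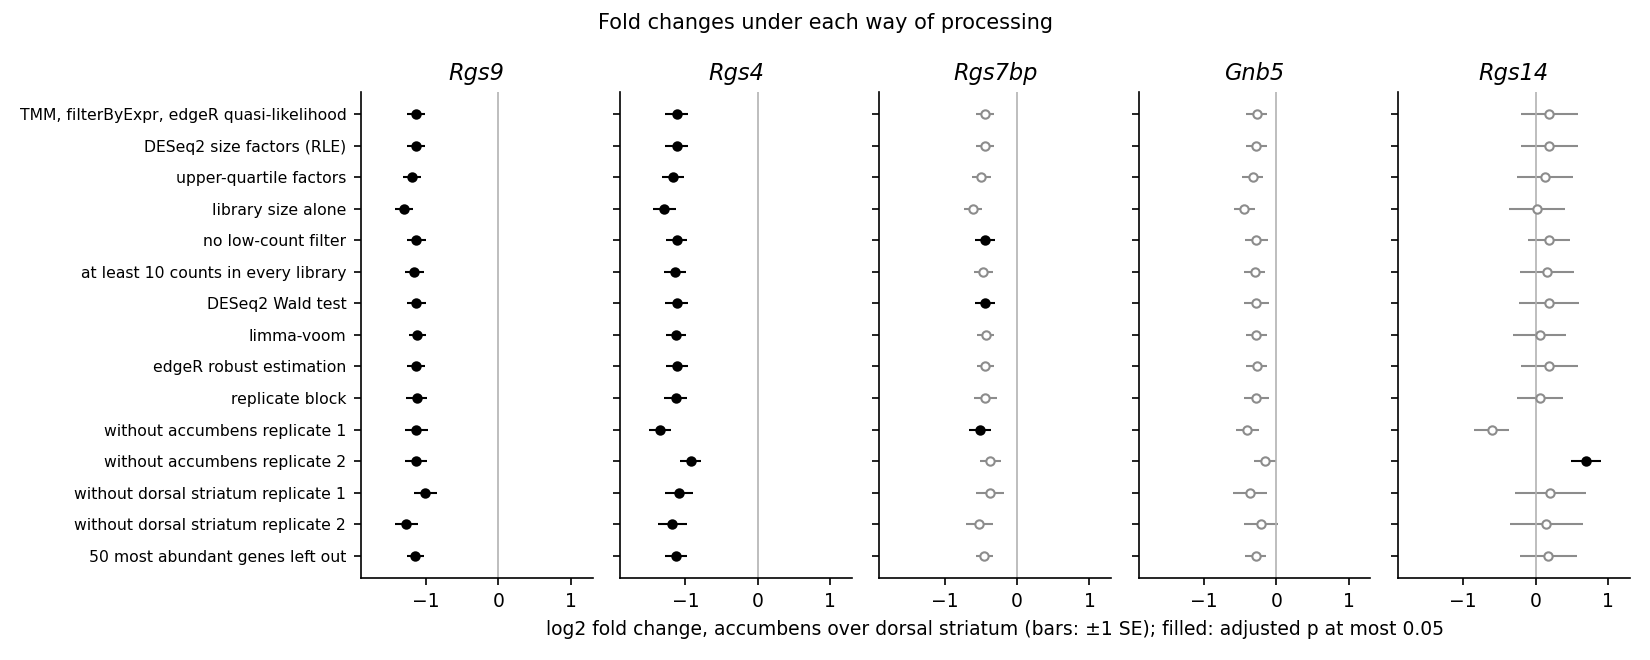
Log2 fold change, accumbens over dorsal striatum, of 5 genes under 15 ways of processing the counts, with bars of 1 SE and filled points at an adjusted p of at most 0.05. Rgs9 (−1.31 to −1.01) and Rgs4 (−1.35 to −0.93) are filled in every line, and Rgs14 changes side between the lines without accumbens replicate 1 (−0.61) and without accumbens replicate 2 (0.70).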

How the data were processed

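Total RNA of accumbens and dorsal striatum was sequenced in 4 libraries. For each library the authors deposited a file of raw read counts by gene symbol, made with STAR 2.0.0e and HTSeq on mm10, per the submitters' processing notes. Which annotation and strand setting the counting used is not given in the sources used here. Rows that name no gene were left out. Of all counted reads, those in no feature made up 27.5% to 29.8% in accumbens and 29.6% to 35.4% in dorsal striatum, ambiguous reads 8.41% to 9.46% and 6.06% to 7.38%, and reads with several alignments 9.93% to 10.2% and 6.98% to 8.75%.

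Counts were filtered with filterByExpr, scaled with TMM and compared by edgeR's quasi-likelihood F test (edgeR 4.0.16, R 4.3.3), two-sided, with region as the only term and Benjamini-Hochberg adjustment over 14493 genes at a threshold of 0.05. The SE was taken as the absolute log2 fold change over the root of F. The procedure was tested on simulated data. Gene positions and transcript lengths came from GENCODE M21 (GRCm38), and promoters, found for 8 of the 10 genes, from RefSeq. Alternatives used DESeq2 1.42.0, limma 3.58.1, other scalings and filters, a replicate block and each library left out.

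The 10 genes and all lists were chosen with earlier results of these data known. Every one of the 10 is named, and from each pathway list the genes past the threshold (up to 6), or the 2 most abundant where none passed. The other RGS genes are named too. Further genes named (Rgs9bp, and Ppp1r1b, Pdyn, Necab2, Cacng5, Amigo2 and Map3k15 from marker lists) were added after their values were seen.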

Additional observations from a re-analysis of the deposited data

How the results depend on the processing

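With 2 libraries per region, the number of genes called depended strongly on the processing, while Rgs9 and Rgs4 passed with the same sign in all 14 alternatives run, and between 2 and 3 of the 10 genes passed in each. The count of 186 genes became 1203 without a low-count filter, 473 with at least 10 counts in every library, 933 with DESeq2 and 431 with limma-voom, and it ranged from 109 to 4464 when 1 library was left out. The cause was not tested. With 1 library left in a region, that library was taken to vary like the other region's pair. Of the 10 genes, the direction of Rgs14 alone turned, to −0.61 without accumbens replicate 1, and it reached the threshold at 0.70 without accumbens replicate 2.

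With the replicate number as a block 843 genes passed, and Rgs9 and Rgs4 were again the 2 of 10 genes called. The deviations of same-numbered libraries correlated at 0.03 over 14493 genes, which does not show a pairing, and the labels do not say whether the same number marks the same animal. Rgs6, with 26 to 69 counts per library, is the gene among the 10 most limited by depth.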
